A study of Mus musculus with 8 samples.

Results

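The genes examined here are the HIF factors and the enzymes that sense oxygen for them, together with a pair of HIF target genes, in cultured mouse heart fibroblasts. They are the 10 rows of the deposited gene count table, of 56748 in all, that carry the symbols Hif1a, Epas1, Arnt, Egln1, Egln2, Egln3, Hif1an, Vhl, Bnip3 and Ankrd37. The fibroblasts were wild-type primary cells grown from the hearts of C57BL/6J mice at 1 day of age. Of the 8 libraries of polyadenylated RNA, 4 came from cells with no treatment and 4 from cells given TGF-β (in the series design, recombinant TGF-β1), at 10 ng/mL for 48 h. The design describes replicate cultures from different litters, and all of them grew in serum-containing medium. No oxygen level is stated in the labels, and no library is labelled as hypoxic.

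Hypoxia-inducible factors are pairs of an oxygen-labile α subunit and a stable β subunit, and they switch on genes for sugar breakdown, blood vessel growth and matrix modification when oxygen is scarce. While oxygen is present, prolyl hydroxylases of the EGLN family mark the α subunit, the VHL protein then recruits a ubiquitin ligase that has it degraded, and the asparaginyl hydroxylase encoded by Hif1an blocks its contact with coactivators. Since α subunit protein is set mainly by this degradation, a transcript level does not give the protein level. In fibroblasts, HIF activity is known for its links with collagen-modifying enzymes and with TGF-β signalling.

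Between 14340740 and 17176898 reads were counted per library. All 8 fibroblast markers passed the count filter, and their summed level was 15351 to 16878 CPM in untreated and 19669 to 21350 CPM in treated libraries (CPM, the TMM-scaled share of the library's counts in the usual CPM unit). The higher sum came from Col1a1 (log2 fold change 0.62) and Col1a2 (0.41), while 5 of the 8 fell, namely Pdgfra (−1.18), Thy1 (−1.14), Lum (−1.11), Tcf21 (−0.69) and Dcn (−0.39), so that the median was −0.54. Endothelial markers, whose cells are rich in Epas1 in the heart, summed to 114 to 119 CPM in untreated and 115 to 122 CPM in treated libraries, and Cldn5 stayed under 1 CPM. Cardiomyocyte markers summed to 795 to 866 and 431 to 513 CPM, with 10 of 12 lower after treatment and 0 higher. Mural markers ran from 272 to 281 and from 430 to 488 CPM, of which Mcam alone went from 209 to 375 CPM. Of 8 mural markers 5 were tested, where Cspg4, Mcam and Rgs5 rose, Notch3 fell (−0.57) and Myh11 was not called. Abcc9, Kcnj8 and Higd1b stayed under 1 CPM. Epicardial markers ran from 1111 to 1172 and from 893 to 927 CPM, with 2 of 9 higher and 3 lower. Macrophage markers ran from 188 to 231 and from 170 to 208 CPM. None of 6 erythroid markers passed the filter, and 3 of these had no read. Untreated replicate 1 stood apart, with 0.0322% of its counts on ribosomal RNA genes against 1.05% to 2.47% in the other 7 libraries.

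TGF-β1 lowered Epas1 and Egln3, raised Egln1 slightly, and left the other 7 members without a call. All 10 members passed the filter on low counts. Of these, 1 rose, against a background of 18.1% of all 13960 genes tested, and 2 fell, against 19.0% (quasi-likelihood test of edgeR, called at a Benjamini-Hochberg adjusted p under 0.05 over all genes tested). In either direction the calls were 3 of 10, beside 37.1% of all genes, so the share called among the members was not above that among all genes. Their median log2 fold change was 0.04, and that of all genes tested was 0.01. When libraries were scaled by their totals alone, the calls over all genes went from 2530 higher and 2648 lower to 1337 higher and 3745 lower, and among the members to 1 higher and 3 lower. The 4 treated and 4 untreated libraries did not overlap in CPM for 4 members, Epas1, Egln1, Egln3 and Arnt, beside 33.9% of all genes tested.

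**Figure D1:**
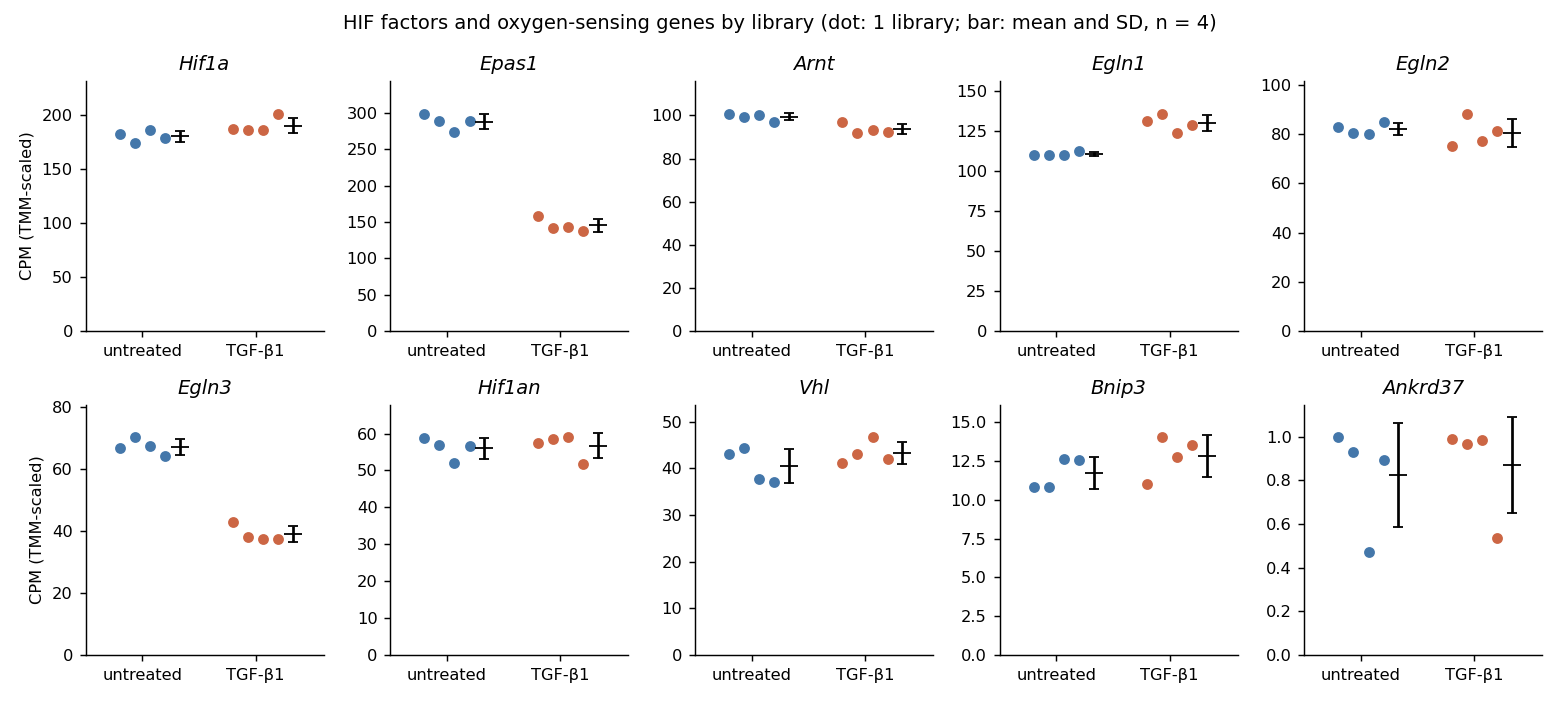
CPM of each member (vertical axes, from 0) in the 4 untreated and the 4 TGF-β1 libraries (dots, 1 per library), with the mean and SD of each group at the right of the dots. Epas1 and Egln3 sit far lower in all 4 treated libraries, and Egln1 sits higher by a smaller margin. The groups of Hif1a, Egln2, Hif1an, Vhl, Bnip3 and Ankrd37 overlap, those of Hif1a only narrowly.

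Epas1 encodes HIF-2α, the α subunit known for its role in endothelial cells and in erythropoietin control (ENSMUSG00000024140, GRCm39 chromosome 17, 87061128 to 87140838, plus strand). Its level was 299, 288, 274 and 289 CPM in untreated replicates 1 to 4 and 159, 141, 143 and 138 CPM in treated replicates 1 to 4. The highest treated library thus lay well under the lowest untreated one. The mean went from 287 ± 10.2 to 145 ± 9.24 CPM (± SD, n = 4 each), for a log2 fold change of −0.99 ± 0.04 (SE, with an adjusted p of 1.29e-21 in edgeR), or 1.98-fold lower. Over the 18 alternative settings it ranged from −1.07 to −0.96 and was called in each. In these bulk libraries fewer cells of a type and less RNA per cell cannot be told apart. The summed endothelial markers overlapped between the groups. Of the 11 endothelial markers tested, 3 rose (Cdh5, Pecam1 and Flt1) and 2 fell (Egfl7 and Tek). The summed cardiomyocyte and epicardial markers were lower in the treated libraries, and 5 of 8 fibroblast markers fell. Of the 9 epicardial markers, 3 fell, 2 rose and 4 were not called. The part of these marker changes in the fall of Epas1 was not tested.

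Hif1a encodes HIF-1α, the α subunit present in most cell types (ENSMUSG00000021109, chromosome 12, 73948149 to 73994304, plus strand). It was measured at 182, 174, 186 and 179 CPM in untreated replicates 1 to 4 and at 187, 186, 186 and 201 CPM in the treated ones. The groups met at 186 CPM, and treated replicate 4 was the highest library. The log2 fold change was 0.08 ± 0.04 (SE, with an adjusted p of 0.128 in edgeR), with a 95% interval of −0.0030 to 0.16, so a rise above about 0.16 on the log2 scale lay outside the interval. Scaled to library totals, the estimate was −0.0037. A lncRNA on the opposite strand, Gm15283, covers 8.3% of the exonic bases of Hif1a in GENCODE M39, and whether counting used strand is not known.

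Arnt encodes the shared β subunit (ENSMUSG00000015522, chromosome 3, 95341699 to 95404551, plus strand). Its level was 101, 99.4, 100 and 97.1 CPM in untreated replicates 1 to 4 and 96.9, 91.7, 93.2 and 92.5 CPM in treated replicates 1 to 4. Untreated libraries were all above treated ones, by as little as the step from 97.1 to 96.9 CPM. The log2 fold change of −0.09 ± 0.04 did not pass the test (SE, with an adjusted p of 0.114 in edgeR). It did pass with library totals (−0.17, edgeR adjusted p = 0.00259), and its adjusted p over the 18 alternatives ran from 0.00259 to 0.268.

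Set per length, with the gene lengths of the deposited table, the order of the α subunits turned over between the groups. The values compared here are the authors' FPKM, which divide by the gene length of the deposited table, and they are given as a description without a test. Epas1 was the most abundant member in untreated cells, at 48.0 to 52.5 FPKM, and Hif1a lay at 29.1 to 31.0 FPKM. In treated cells Epas1 was at 24.3 to 28.0 FPKM, under Hif1a at 31.1 to 33.5 FPKM. The ratio of Epas1 to Hif1a was 1.68 ± 0.09 in untreated and 0.807 ± 0.0698 in treated libraries (± SD, n = 4 each). It ran from 1.55 to 1.74 in untreated and from 0.724 to 0.894 in treated libraries, so the ratio lay above 1 in each untreated library and below 1 in each treated one. The deposited length is 5896 bases for Hif1a and 5590 for Epas1, while their exons in GENCODE M39 span 8344 and 5649 bases. Whether the ratio lies above or below 1, and the order and sum of the subunits, thus depend on the lengths used. The fold by which the ratio fell does not. The α subunit transcripts together summed to 80.7 ± 1.68 and 57.3 ± 1.54 FPKM, which is 6.61 ± 0.142 and 4.98 ± 0.0757 times the level of Arnt.

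**Figure D2:**
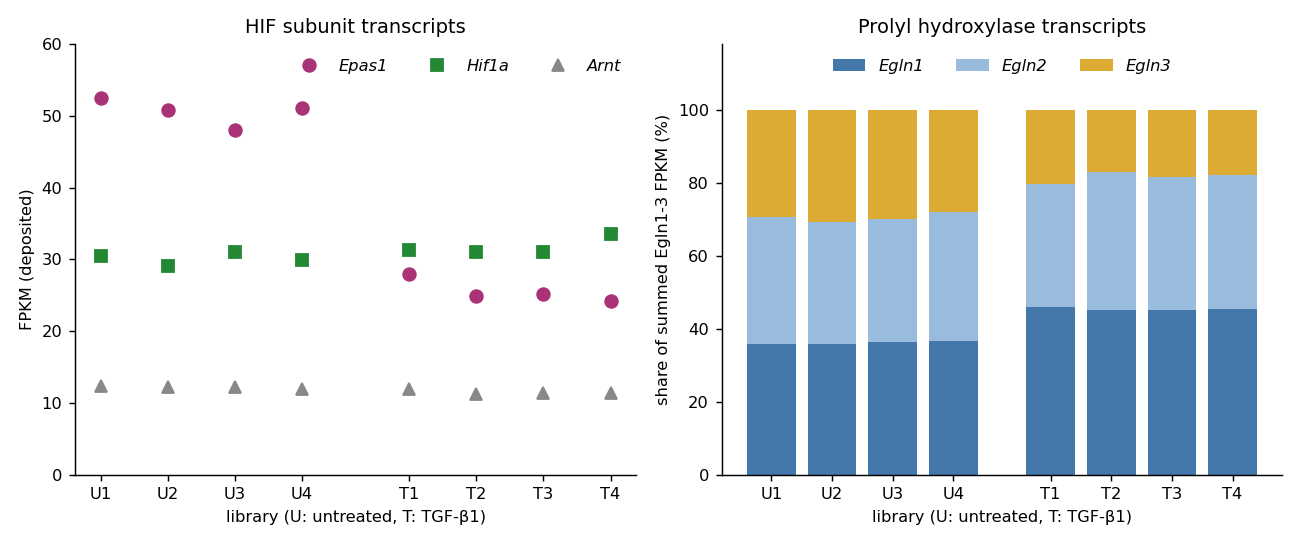
Left, deposited FPKM (from 0) of Epas1, Hif1a and Arnt in each library, where U marks untreated and T TGF-β1 replicates. Right, the share of Egln1, Egln2 and Egln3 in their summed FPKM, in percent, 1 bar per library. Epas1 lies above Hif1a in the 4 untreated libraries and below it in the 4 treated ones, and the Egln3 share falls from 28.2% or more to 20.3% or less. The order and the shares depend on the gene lengths of the deposited table.

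The prolyl hydroxylases moved apart. Egln3 encodes PHD3, itself a known HIF target (ENSMUSG00000035105, chromosome 12, 54225767 to 54250646, minus strand). Its level was 66.8, 70.3, 67.4 and 64.3 CPM in untreated replicates 1 to 4 and 42.8, 38.2, 37.5 and 37.3 CPM in treated replicates 1 to 4. All treated libraries lay far under the untreated ones, and treated replicate 1 was the highest of its group, as it was for Epas1. The mean went down, with 67.2 ± 2.47 CPM in untreated and 39.0 ± 2.59 CPM in treated cultures (SD, n = 4 each), and its log2 fold change was −0.79 ± 0.06 (SE, with an adjusted p of 1.17e-14 in edgeR), or 1.73-fold. Over the 18 alternatives it stayed between −0.87 and −0.75 and was called in each.

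Egln1 encodes PHD2, known as the main regulator of HIF-1α in oxygenated cells (ENSMUSG00000031987, chromosome 8, 125635326 to 125676063, minus strand). Untreated replicates 1 to 4 had 109.9, 110.2, 110.3 and 113 CPM, and treated replicates 1 to 4 had 131, 136, 124 and 129 CPM. The untreated libraries were tightly grouped, and each treated one was higher. The log2 fold change was 0.23 ± 0.04 (SE, with an adjusted p of 1.72e-05 in edgeR), a rise of 17.4%. The estimate was 0.15 to 0.26 over the 18 alternatives and was called in each. Egln2, encoding PHD1, had 82.8, 80.4, 79.9 and 84.9 CPM untreated and 75.0, 88.2, 77.1 and 81.1 CPM treated (ENSMUSG00000058709, chromosome 7, 26858083 to 26866227, minus strand). Its treated libraries lay on both sides of the untreated ones, and the log2 fold change was −0.03 ± 0.05 (SE, with an adjusted p of 0.696 in edgeR, 95% interval −0.13 to 0.07). Exons of Cyp2t4 on the opposite strand cover 20.8% of the exonic bases of Egln2 in GENCODE M39, so its count is less certain. Those M39 exons span 7795 bases against a deposited length of 2800, and whether the overlap lies in counted exons is not known.

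Summed over the family with the gene lengths of the deposited table, prolyl hydroxylase transcripts differed less than Egln1 or Egln3 did. The sum of Egln1, Egln2 and Egln3 was 83.9 ± 0.783 FPKM in untreated and 78.2 ± 3.18 FPKM in treated libraries (± SD, n = 4 each). Egln1 made up 36.1 ± 0.36% of that sum in untreated and 45.5 ± 0.368% in treated cells. The share of Egln3 was 29.6 ± 1.10% and 18.4 ± 1.34%, and that of Egln2 was 34.3 ± 0.86% and 36.1 ± 1.67%. The deposited lengths of Egln1, Egln2 and Egln3 are 3594, 2800 and 2662 bases, while their exons in GENCODE M39 span 8958, 7795 and 2689 bases. With the M39 lengths Egln1 and Egln2 would weigh less beside Egln3. The sum, its change, the shares and the ranks by FPKM thus depend on the lengths used. In untreated cells the levels of Egln1 (30.1 to 30.9 FPKM), Hif1a and Egln2 (28.0 to 29.9 FPKM) followed each other with overlap between neighbours, and Egln3 came next at 23.8 to 26.0 FPKM. In treated cells Egln1 ranked first at 33.9 to 37.3 FPKM, above Hif1a. Egln2 at 26.4 to 31.0 FPKM overlapped Epas1, and Egln3 at 13.8 to 15.8 FPKM overlapped Vhl at 13.6 to 15.3 FPKM. The lower ranks were alike in both groups, with Arnt, Hif1an at 7.68 to 8.78 FPKM, Bnip3 at 4.70 to 6.10 FPKM and Ankrd37 at 0.301 to 0.636 FPKM over the 8 libraries.

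The upstream windows of Egln1 and Egln3 are shown because these members moved in opposite directions. HIF binds a short core, searched here as ACGTG and as GCGTG on both strands. The windows are the 250 bases before each RefSeq start site, taken from RefSeq (GRCm38.p6 table) and matched without mismatch to 1 place on the chromosome in GRCm39. Capitals mark bases of any match. Egln3 lies at chr12:54250661-54250910 and Egln1 at chr8:125675994-125676243, both on the minus strand and printed 5′ to 3′.
Egln3: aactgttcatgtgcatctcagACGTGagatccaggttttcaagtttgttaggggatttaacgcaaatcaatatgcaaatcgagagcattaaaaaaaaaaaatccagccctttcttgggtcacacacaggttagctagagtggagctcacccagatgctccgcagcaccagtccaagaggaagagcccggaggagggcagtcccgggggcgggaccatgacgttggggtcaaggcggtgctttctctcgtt
Egln1: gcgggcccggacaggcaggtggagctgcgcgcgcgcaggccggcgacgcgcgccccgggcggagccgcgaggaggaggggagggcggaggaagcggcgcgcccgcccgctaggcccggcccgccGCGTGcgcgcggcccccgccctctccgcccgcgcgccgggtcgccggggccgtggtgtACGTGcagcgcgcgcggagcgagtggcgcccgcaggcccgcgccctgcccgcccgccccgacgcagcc
Egln3 held 1 match, an ACGTG that starts 229 bases before the start site. Egln1 held 2, an ACGTG starting 68 bases and a GCGTG starting 126 bases before it. Over all 32851 RefSeq windows of the same length, 16.6% held ACGTG, 28.2% held GCGTG and 38.6% held either. A window was given for 9 of the 10 members, all but Epas1, and 7 of the 9 held a match. Matches are letters only and do not show binding. Bases outside these windows were not searched, and a part of the matches in the changes of Egln1 and Egln3 was not tested.

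Hif1an and Vhl, which act beside the prolyl hydroxylases, were not called. Hif1an encodes the asparaginyl hydroxylase FIH (ENSMUSG00000036450, chromosome 19, 44551289 to 44564713, plus strand). It had 58.7, 56.8, 51.9 and 56.7 CPM in untreated replicates 1 to 4 and 57.6, 58.6, 59.0 and 51.7 CPM in treated ones. The ranges nearly coincided, and the log2 fold change was 0.02 ± 0.06 (SE, with an adjusted p of 0.868 in edgeR, 95% interval −0.10 to 0.13). Vhl encodes the part of the ubiquitin ligase that recognises hydroxylated HIF-α (ENSMUSG00000033933, chromosome 6, 113600920 to 113608594, plus strand). Its values were 43.1, 44.3, 37.7 and 37.0 CPM untreated and 41.3, 43.0, 46.7 and 42.0 CPM treated. The groups overlapped, with a log2 fold change of 0.09 ± 0.06 (SE, with an adjusted p of 0.269 in edgeR, 95% interval −0.04 to 0.22).

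**Figure D3:**
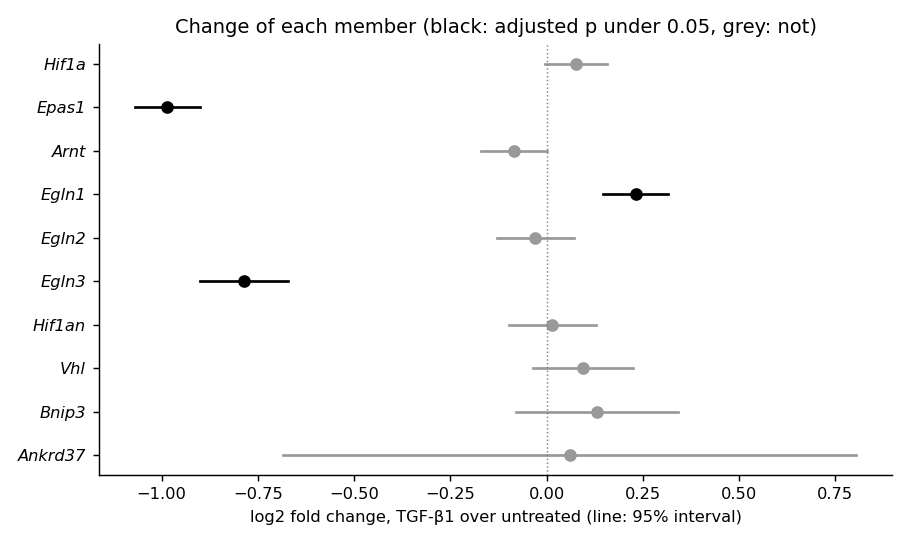
Log2 fold change of each member (points) with its 95% interval (lines), from the edgeR fit over all genes. Black marks an adjusted p under 0.05, which held for Epas1 (−0.99), Egln3 (−0.79) and Egln1 (0.23), and the interval of Ankrd37 is by far the widest.

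Bnip3 and Ankrd37, included among the members as HIF targets only, were not called, while of the hydroxylase genes Egln3 fell and Egln1 rose. Bnip3 encodes a mitochondrial outer membrane protein that promotes mitophagy (ENSMUSG00000078566, chromosome 7, 138492565 to 138511248, minus strand). It had 10.8, 10.8, 12.7 and 12.6 CPM in untreated replicates 1 to 4 and 11.0, 14.0, 12.7 and 13.5 CPM in treated ones. The groups overlapped, and the log2 fold change was 0.13 ± 0.10 (SE, with an adjusted p of 0.352 in edgeR, 95% interval −0.08 to 0.34). An opposite-strand lncRNA, Gm45507, covers 11.7% of its exonic bases. Ankrd37, an ankyrin repeat gene induced by HIF-1 (ENSMUSG00000050914, chromosome 8, 46449939 to 46458744, minus strand), was close to the detection limit. Its raw counts were 15, 14, 7 and 15 in untreated and 14, 14, 14 and 9 in treated replicates 1 to 4. With so few reads the 95% interval of its log2 fold change (0.06) ran from −0.68 to 0.80, and a change of 1.5-fold in either direction was not detectable at this depth. Exons of Ufsp2 and Lrp2bp on the opposite strand cover 81.4% of its exonic bases, which adds to the uncertainty of the count.

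The upstream windows of Bnip3 and Ankrd37 are printed as among the most match-rich of the members, picked for their matches. Egln2 held 4 matches in the window at the table's gene end, and Egln3 held 1. Overlapping matches, also those on opposite strands, were each counted. Bnip3 lies at chr7:138511236-138511485 and Ankrd37 at chr8:46452888-46453137 in GRCm39, both on the minus strand, 5′ to 3′, with capitals as above.
Bnip3: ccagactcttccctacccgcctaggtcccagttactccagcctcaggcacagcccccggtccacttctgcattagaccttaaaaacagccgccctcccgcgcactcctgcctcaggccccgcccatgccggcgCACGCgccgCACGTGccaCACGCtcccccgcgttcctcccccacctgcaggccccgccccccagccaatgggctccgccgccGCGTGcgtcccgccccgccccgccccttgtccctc
Ankrd37: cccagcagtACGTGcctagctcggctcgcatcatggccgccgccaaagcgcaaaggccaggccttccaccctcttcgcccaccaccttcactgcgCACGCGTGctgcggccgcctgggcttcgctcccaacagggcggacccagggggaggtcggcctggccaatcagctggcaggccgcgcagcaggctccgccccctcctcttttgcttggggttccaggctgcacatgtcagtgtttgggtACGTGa
Bnip3 held 5 matches, of which an ACGTG on each strand overlap in a palindrome 103 to 108 bases before the start site. Ankrd37 held 4, with an ACGTG starting 6 bases and another starting 241 bases before it. The RefSeq start site of Ankrd37 lies 5857 bases inside the gene as the count table draws it, and that of Hif1a 6492 bases.

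**Figure D4:**
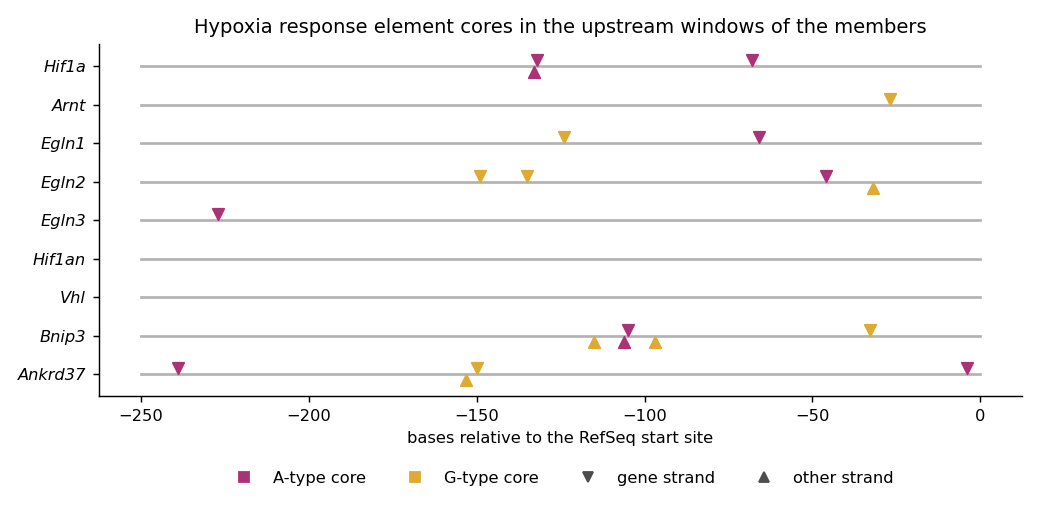
Matches of ACGTG (purple) and GCGTG (yellow) in the 250 bases before the RefSeq start site of 9 members (horizontal axis, bases relative to the start site, 0 at the right). Downward triangles are on the strand of the gene and upward ones on the other strand, and for Egln2 the start site nearest the table's gene end is drawn. Bnip3 has 5 matches, Egln3 has 1, and Hif1an and Vhl have 0.

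Other genes of the HIF pathway were read from lists of related function, and each count is set beside the 18.1% higher and 19.0% lower of all genes tested. Among 9 other HIF subunits and coactivators, 8 were tested, 2 rose and 2 fell. Arnt2, the β subunit of neural tissue, fell from 27.4 ± 1.97 to 18.0 ± 1.02 CPM (± SD, n = 4 each), a log2 fold change of −0.60 ± 0.08 (SE, with an adjusted p of 3.98e-08 in edgeR). The circadian relative Arntl rose by 0.37 ± 0.09, and Cited2, which competes with HIF-α for the coactivators p300 and CBP, rose by 0.19 ± 0.05, a call lost with library totals. Kat5 fell by 0.21 ± 0.08, a call lost with no count filter (edgeR adjusted p = 0.0516) and with DESeq2 (adjusted p = 0.0872), and without untreated replicate 2 or treated replicate 1, 2 or 3 (edgeR adjusted p = 0.0512 to 0.181). Opposite-strand exons cover 24.3% of the exonic bases of Kat5. Without treated replicate 4, Ncoa1 and Pkm were also called, so that 4 rose. The coactivator genes Ep300 (0.03 ± 0.05) and Crebbp (−0.06 ± 0.05) were not called. The third α subunit gene, Hif3a, did not pass the filter.

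The VHL ubiquitin ligase and factors that set HIF stability had few calls. Of 15 genes tested, 3 rose and 0 fell, with a median log2 fold change of 0.08. Those that rose were Elob, an elongin that binds VHL (0.18 ± 0.04), Rack1, which can target HIF-1α for decay without oxygen sensing (0.18 ± 0.04), and the chaperone gene Hsp90ab1 (0.12 ± 0.03). With library totals only 1 was called higher, and Hsp90ab1 went to 0.04 (edgeR adjusted p = 0.449). An opposite-strand lncRNA and Slc35b2 cover 34.9% of the exonic bases of Hsp90ab1. Wsb1, at −0.12 and not called (edgeR adjusted p = 0.0626), was called lower in 6 of 18 alternatives.

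HIF targets outside glycolysis were called in most cases. Of 27 tested, 17 rose (63%) and 5 fell (18.5%), with a median log2 fold change of 0.30 beside 0.01 for all genes. Over the 18 alternatives 14 to 18 rose and 4 to 6 fell. The list was chosen with earlier results of these data known, so its share beside that of all genes is a description only. Many genes of this list also respond to signals other than HIF, TGF-β among them. Cxcl12, a chemokine gene, went from 54.2 ± 1.05 to 117 ± 2.49 CPM (± SD, n = 4 each), a log2 fold change of 1.12 ± 0.04 (SE, with an adjusted p of 2.07e-22 in edgeR). Ndrg1, a stress-response gene, went from 56.5 ± 3.40 to 127 ± 7.41 CPM (± SD, n = 4 each), or by 1.17 ± 0.05. Opposite-strand exons cover 14.2% of its exonic bases. Vegfa, the vascular endothelial growth factor gene, went from 139 ± 6.04 to 252 ± 7.07 CPM (± SD, n = 4 each), or by 0.85 ± 0.04. The lysyl hydroxylase gene Plod2 rose by 0.63 ± 0.03. Collagen hydroxylases in the list rose, with P4ha1 at 0.45 ± 0.03, Plod1 at 0.37 ± 0.04 and P4ha2 at 0.18 ± 0.06, the last lost with library totals (edgeR adjusted p = 0.197) and without treated replicate 2 (edgeR adjusted p = 0.0704).

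The 5 targets that fell were Zfp395 (−1.39 ± 0.11), Car9 (−1.37 ± 0.43), Rora (−0.38 ± 0.05), the vasodilator peptide gene Adm (−0.37 ± 0.04) and the histone demethylase gene Kdm3a (−0.22 ± 0.06), named after their values were seen. Car9, a carbonic anhydrase gene that is among the most HIF-dependent transcripts, was at only 1.09 ± 0.345 and 0.404 ± 0.291 CPM (± SD, n = 4 each). Its call was lost without untreated replicate 1 (edgeR adjusted p = 0.0608) and without treated replicate 2, and treated replicate 4 had 13 reads, as did untreated replicates 2 and 3. Known HIF targets thus moved in both directions in the same libraries, Vegfa and Ndrg1 upward and Egln3 and Adm downward. Summed mural markers were higher in the treated libraries, with 3 of 5 tested higher and 1 lower. Summed cardiomyocyte and epicardial markers and 5 of 8 fibroblast markers were lower. Of 9 epicardial markers, 3 fell and 2 rose. The part of these marker changes in the changes of the HIF targets was not tested.

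Glycolytic HIF targets shifted by a small amount in the median, with larger changes of single genes in both directions. Of 19 tested, 8 rose (42.1%) and 3 fell (15.8%), with a median log2 fold change of 0.09. The monocarboxylate transporter gene Slc16a3 rose by 0.61 ± 0.07, although exons of opposite-strand genes cover 44.1% of its exonic bases. The hexokinase gene Hk2 rose from 39.2 ± 2.05 to 57.7 ± 1.97 CPM (± SD, n = 4 each), or by 0.56 ± 0.06, and Pgam1 by 0.22 ± 0.04. For Pgam1, opposite-strand exons cover 13.4% of the exonic bases. The 3 that fell were the neuronal-type glucose transporter gene Slc2a3 (−0.44 ± 0.08), Aldoc (−0.67 ± 0.23) and Pfkp (−0.21 ± 0.05). The call of Aldoc was lost with DESeq2, without untreated replicate 2 and without treated replicate 1 or 2, where the adjusted p reached 0.0745 in edgeR. Slc2a1, the widespread glucose transporter gene, was at 0.10 ± 0.05 and was not called (edgeR adjusted p = 0.0829). The count of 8 was unstable, at 5 without untreated replicate 1, 5 without untreated replicate 4, 4 with limma on either FPKM scale and 3 with library totals, where 5 fell. Gapdh was counted at only 5.02 ± 1.21 and 7.67 ± 3.11 CPM (± SD, n = 4 each), and as a gene with many near-identical copies in the genome it is uncertain.

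**Figure D5:**
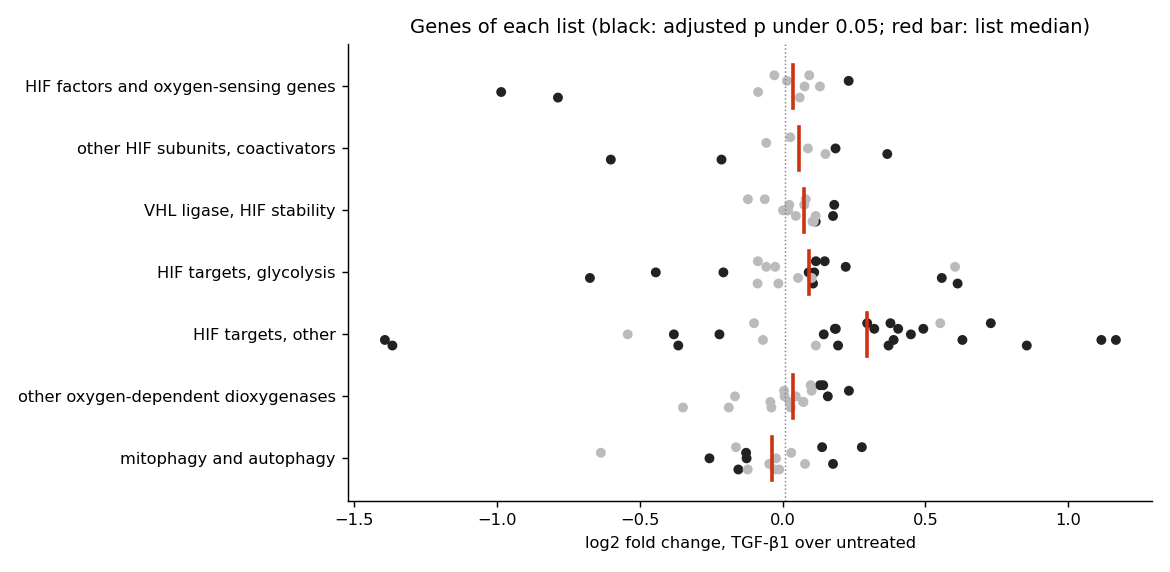
Log2 fold change (horizontal axis) of each tested gene in the members and in 6 lists of related genes (rows), black where the adjusted p was under 0.05 and grey elsewhere, with a red bar at each list's median and a dotted line at the median of all genes (0.01). HIF targets outside glycolysis have the highest median (0.30), and the other lists have medians between −0.04 and 0.09. The lists were chosen with earlier results of these data known.

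Other dioxygenases that need oxygen were mostly uncalled. Of 18 tested, 4 rose and 0 fell, with a median log2 fold change of 0.04. The histone demethylase genes Kdm5b (0.23 ± 0.05), Kdm5c (0.14 ± 0.04) and Kdm4a (0.13 ± 0.04) and the DNA dioxygenase gene Tet3 (0.16 ± 0.05) rose. With library totals 1 rose and 2 fell, and Kdm5c, Kdm4a and Tet3 lost their calls (edgeR adjusted p = 0.278, 0.440 and 0.252). Kdm4a also lost its call without untreated replicate 2, and Tet3 without treated replicate 1 and with limma on either FPKM scale. The demethylase gene Kdm6a, at −0.19 and not called (edgeR adjusted p = 0.0602), was called lower in 6 of 18 alternatives. Genes of mitophagy and autophagy around Bnip3 went both ways, with 3 of 16 rising and 4 falling. The receptor gene Sqstm1 rose by 0.28 ± 0.04 and Gabarap by 0.14 ± 0.03, while the phosphatase subunit gene Ppp2r5a fell by 0.26 ± 0.05 and Map1lc3b by 0.13 ± 0.04. Opposite-strand exons cover 18.9% of the exonic bases of Sqstm1. The Bnip3 paralog Bnip3l, called at −0.13 ± 0.04 (SE, with an adjusted p of 0.0246 in edgeR), lost its call in 8 of 18 alternatives. With library totals 1 of these genes rose and 7 fell.

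The genes whose log2 CPM followed Epas1 most closely over the 8 libraries were Slc9a3r1 (Pearson r = 0.998), Gins2 (0.997) and Maoa (0.997). Those closest to Hif1a were Mapre1 (0.993), Coa5 (0.976) and Mzt1 (0.971). The points share their libraries and scaling, and for Epas1 the difference between the groups makes up most of its variation, so these values are descriptions.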

How the data were processed

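RNA-seq of 4 untreated and 4 TGF-β1-treated cultures was used. The deposited counts are whole reads per gene and were not normalized. Alignment and counting tools in the submitters' processing notes are HISAT2 and featureCounts of Subread, beside CASAVA, and the strand mode of counting was not given in the sources used here. FPKM values are the authors' own and served for levels per length. The notes name GRCm38 and the series design mm39. Of 21778 coding genes matched to GENCODE M39, 99.9% overlap the same gene in GRCm39, so coordinates are read as GRCm39. Each share of exonic bases under opposite-strand exons refers to M39 exons. These span more bases than the deposited gene length for members such as Hif1a, Egln2 and Bnip3, so an overlap may lie outside the counted exons.

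Genes were kept by filterByExpr (minimum count 10, minimum total 15), scaled with TMM and tested with the robust quasi-likelihood test of edgeR 4.0.16 (limma 3.58.1, R 4.3.3), group as the only term, two-sided, Benjamini-Hochberg adjusted over 13960 genes. Each SE is the log2 fold change divided by √F. The test was tried on simulated counts first. Replicate pairs differed by 2.14 to 3.41 times the sampling noise, so none was counted as a duplicate. The members and gene lists were chosen with earlier results of these data known, and no list was tested as a set. Named are the 10 members, up to 4 called genes of each list with the smallest p, and the 3 genes closest to Hif1a and Epas1 (mean CPM of at least 5), besides genes named as chosen after their values were seen, which include P4ha1, P4ha2, Plod1, Pfkp, Aldoc, Slc2a1, Gapdh, Ep300, Crebbp, Ncoa1, Pkm, Wsb1, Kdm6a, the 7 fibroblast markers given and Bnip3l. Alternatives were 3 other scalings (library totals, upper quartile, RLE), 2 other count filters, limma on log2 FPKM (pseudocounts 1 and 0.1), DESeq2 1.42.0, the replicate block, removal of ribosomal RNA genes and Lars2, and each library left out. Bmal1 is listed as Arntl in the table.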

Additional observations from a re-analysis of the deposited data

Results flagged for a closer look

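In 20 groups of 4 libraries (10 members in both conditions), gaps between neighbours were read in log2 CPM. In 4 of the groups, a library's gap exceeded the critical share of the group's range. Chance gives about 1 in 20 for normally distributed values. Ankrd37, flagged in each condition, has few and nearly tied reads, so this rate need not hold for it. For Hif1a, treated replicate 4 was at 201 CPM, above the other treated libraries at 186 to 187 CPM. For Egln1, untreated replicate 4 was at 113 CPM, above 3 untreated libraries within 109.9 to 110.3 CPM. For Ankrd37, untreated replicate 3 was at 0.472 CPM (7 reads) and treated replicate 4 at 0.537 CPM (9 reads), below the other libraries of their groups at 14 to 15 reads.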

How the results depend on the processing

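Epas1, Egln3 and Egln1 kept their direction and their call in all 18 alternatives. Among the members the only call that changed was Arnt, which became lower with library totals. No pairing by replicate number was found: same-numbered libraries had correlations of −0.175 to 0.105, no library correlated best with its own number in the other group, and the replicate block gave 1 member higher and 2 lower. The highest correlations were 0.241 (untreated replicate 2 with treated replicate 1) and 0.239 (untreated replicate 1 with treated replicate 2). A pairing other than by number was not tested. With library totals, the counts called higher and lower were 1 and 3 for other HIF subunits and coactivators, 1 and 2 for the VHL ligase list, 3 and 5 for glycolytic targets, 1 and 2 for other dioxygenases, and 1 and 7 for mitophagy genes. The TMM factors that this setting leaves out were 1.02 to 1.05 in untreated and 0.96 to 0.98 in treated libraries. Without them the median log2 fold change of all genes tested went from 0.0068 to −0.0737. Of other subunits and coactivators, 1 fell with no count filter and with DESeq2. For the VHL ligase list and for other dioxygenases alike, 1 fell with upper-quartile scaling, with the 50-count filter and with the replicate block, against 0 before. On either FPKM scale limma called 4 glycolytic targets higher and 2 mitophagy genes lower. Leaving out 1 library gave 2 to 4 other subunits higher (4 without treated replicate 4) and 1 to 2 lower, 5 to 9 glycolytic targets higher, and 0 to 1 lower in the VHL ligase and dioxygenase lists. The cause of these differences was not tested. Over the single genes of all lists and the 18 alternatives, 71 values lost a call, 39 gained one, 1918 did neither and none that was called changed sign. Depth limits the genes with few reads, such as the member Ankrd37 with 7 to 15 reads per library.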
